A study of Mus musculus with 8 samples.

Results

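The transcripts described here encode the first steps of the vasopressin signal in the kidney collecting duct, from receptor to cyclic AMP. They are 9 genes, the vasopressin receptors Avpr2 and Avpr1a, the Gs alpha subunit gene Gnas and the adenylyl cyclase genes Adcy3, Adcy4, Adcy5, Adcy6, Adcy7 and Adcy9, chosen by symbol from 77981 genes in the table. All 9 were present. The 8 RNA-seq libraries are of mouse kidney, and their labels name IMCD, the inner medullary collecting duct, as cell type. In 4 libraries the genotype was AVP-flox, in which 1 loxP site lies in intron 1 of Avp, the vasopressin gene, and another beyond its 3′ end. The other 4 were AVP-flox;Cre, which carry a Cre recombinase as well. Tamoxifen was given to both groups, no group carried Cre without floxed Avp, and the labels used here name neither the promoter that drives Cre nor the age of the mice. Nothing in the labels ties a replicate to a mouse of its own, so the p-values measure the spread between these samples, which may be technical.

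Vasopressin binds the V2 receptor on the basolateral membrane of principal cells. The receptor activates Gs, Gs activates adenylyl cyclase, and cyclic AMP then drives aquaporin-2 to the apical membrane and raises its transcription. The V1a receptor couples to Gq and calcium instead, and in the kidney it is known from intercalated cells and vessels. The membrane adenylyl cyclases differ in what else acts on them. Adcy5 and Adcy6 encode calcium-inhibited enzymes, Adcy3 belongs with the calmodulin-regulated group, Adcy4 and Adcy7 with the group stimulated by G beta gamma, and Adcy9 encodes a weakly forskolin-sensitive enzyme.

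Values are TPM, transcript abundance per length scaled to the same total in each library, so levels of different genes can be set beside each other. The depth behind them is unknown. Avp itself was at 0 to 0.24 TPM in AVP-flox and 0 to 0.27 TPM in AVP-flox;Cre. The hormone is made in the hypothalamus, so these values do not check its deletion. The principal cell and IMCD markers were present in all libraries, with 12 of 12 markers tested and summed levels of 20164 to 24226 TPM in AVP-flox and 11306 to 13385 TPM in AVP-flox;Cre, sums that Aqp2 dominates. Of these markers 4 rose, 4 fell and 4 did not pass. Marker counts here and below are from the comparison of the genotypes described below, in which 13.1% of all genes tested rose and 14.2% fell. Thick limb and distal tubule markers summed to 964 TPM in AVP-flox 2, 2660 to 2953 TPM in the other AVP-flox libraries and 1388 to 1648 TPM in AVP-flox;Cre, with 2 of 7 tested markers higher and 0 lower. Proximal tubule markers summed to 628 to 1127 and 736 to 913 TPM, and 0 of 6 tested passed. On the second principal component, libraries 2 and 4 of AVP-flox;Cre stood apart. Fewest genes were detected in AVP-flox;Cre 2, where 33576 had a value above 0 TPM (50951 to 58232 elsewhere). By the level of Xist against that of the Y-linked gene Ddx3y, AVP-flox 1 and libraries 1 and 2 of AVP-flox;Cre looked male and the remaining 5 female.

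On GRCm38, in the GENCODE M21 annotation, Gnas spans chr2:174284320-174346744, Avpr2 chrX:73891765-73894428, Adcy6 chr15:98589978-98610287 and Adcy7 chr8:88272190-88329965. Each total is over all exons of the gene. The start regions of 3 members are shown because they differ in GC content. The GC content set beside the Gnas values below is another measure, that of the first 300 nt of a transcript. By the longest transcript it is 60% for Gnas, 77.7% for Adcy9 and 59.3% for Avpr2. By the most GC-rich protein-coding transcript it is 83.3%, 77.7% and 60%. Each window runs from 250 bases before to 50 bases after an annotated start, taken from RefSeq on GRCm38.p6, with CG dinucleotides in capitals. The Gnas window (chr2:174329756-174330055, plus strand) is the most downstream of 4 annotated there, and holds 81.7% GC and 40 CG dinucleotides. The Adcy9 window (chr16:4420449-4420748, minus strand) holds 78.3% and 42. The Avpr2 window (chrX:73891852-73892151, plus strand) holds 50.0% GC and 1 CG dinucleotide.
Gnas: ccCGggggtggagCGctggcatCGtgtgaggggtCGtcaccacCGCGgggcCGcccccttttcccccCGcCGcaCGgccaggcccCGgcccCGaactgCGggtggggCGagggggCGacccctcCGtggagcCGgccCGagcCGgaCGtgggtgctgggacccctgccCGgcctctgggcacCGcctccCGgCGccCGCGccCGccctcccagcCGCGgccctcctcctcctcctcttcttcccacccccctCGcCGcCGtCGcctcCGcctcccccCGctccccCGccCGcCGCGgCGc
Adcy9: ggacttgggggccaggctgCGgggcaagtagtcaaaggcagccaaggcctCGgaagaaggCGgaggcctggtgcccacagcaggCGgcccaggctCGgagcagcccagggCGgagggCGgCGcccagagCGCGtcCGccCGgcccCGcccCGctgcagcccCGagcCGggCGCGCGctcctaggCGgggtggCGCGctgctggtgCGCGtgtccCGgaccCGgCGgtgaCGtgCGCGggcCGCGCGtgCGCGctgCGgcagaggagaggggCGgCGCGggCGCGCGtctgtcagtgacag
Avpr2: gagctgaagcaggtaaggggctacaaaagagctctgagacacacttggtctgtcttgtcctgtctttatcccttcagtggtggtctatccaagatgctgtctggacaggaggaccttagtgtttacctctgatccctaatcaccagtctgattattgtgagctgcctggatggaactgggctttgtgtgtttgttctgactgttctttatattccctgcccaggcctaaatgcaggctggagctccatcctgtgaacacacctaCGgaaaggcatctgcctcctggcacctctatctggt
Of 32851 RefSeq windows of this length the median GC content was 52.7%, with a median of 7 CG dinucleotides. At least as GC-rich as the Gnas window shown were 0.588% of windows. That window is the most GC-rich of the 4 at Gnas, and the remaining ones hold 64.3, 61 and 64.3% GC. The table held 14 windows for 8 members, 2 of which overlap at Gnas. The half-site of the cyclic AMP response element, TGACG on either strand, occurred in 6 of the 14, against 20.8% of all windows. It was in windows of Avpr1a, Gnas, Adcy7 and Adcy9. The full palindrome TGACGTCA, which contains the half-site, was in 0 of the 14 and in 1.79% of all windows. These matches describe letters only.

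Among the 9 members, Gnas and Avpr2 were the abundant transcripts, Adcy6 came an order of magnitude below, and the other cyclases and Avpr1a were low. In AVP-flox the mean levels were 682 TPM for Gnas, 482 TPM for Avpr2 and 52.4 TPM for Adcy6. Adcy4 followed at 7.64 TPM, Avpr1a at 6.14 TPM, Adcy7 at 4.29 TPM, Adcy9 at 3.42 TPM, Adcy3 at 1.44 TPM and Adcy5 at 0.718 TPM. The ranges of the 4 AVP-flox libraries did not overlap between Gnas and Avpr2, between Avpr2 and Adcy6, between Adcy6 and Adcy4, or between Adcy9 and Adcy3. They did overlap for the neighbours Adcy4 and Avpr1a, Avpr1a and Adcy7, Adcy7 and Adcy9, and Adcy3 and Adcy5. In AVP-flox;Cre the order of the first pair was turned, with Avpr2 at 506 TPM above Gnas at 424 TPM, but their ranges overlapped and Avpr2 exceeded Gnas in 3 of 4 libraries.

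**Figure D1:**
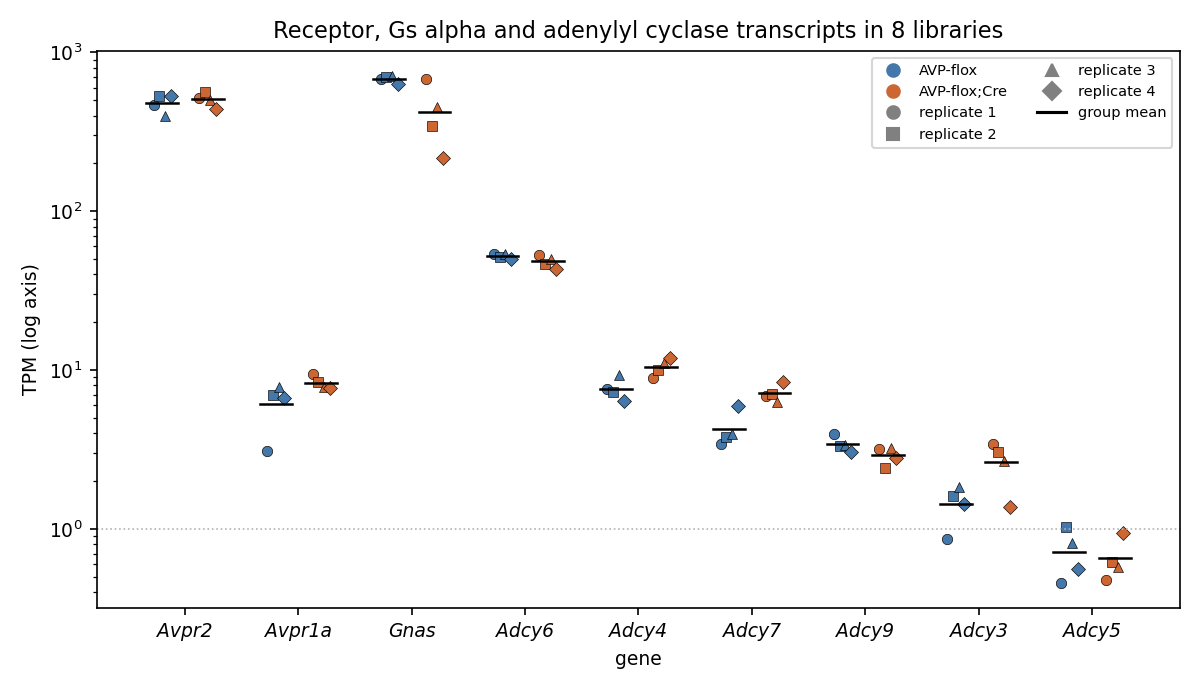
TPM of the 9 genes (log axis) in each library, blue for AVP-flox and orange for AVP-flox;Cre, with a symbol for each replicate number and a bar at the group mean. The dotted line marks 1 TPM, the mean level needed for testing. Gnas spread from 215 to 680.2 TPM in AVP-flox;Cre, while Avpr2 and Adcy6 kept narrow ranges in both groups.

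The 2 genotypes were then compared, inducible Avp knockout against floxed control. Of the 8 members that averaged 1 TPM or more over all libraries, 1 rose (Adcy7), 0 fell and 7 did not pass the test (limma, Benjamini-Hochberg over 19043 genes). That is 12.5% of the tested members against 27.3% of all genes tested. The groups did not overlap for 1 of the 8, again Adcy7, against 29.5% of all genes tested. The median log2 fold change of the 8 was 0.25, and that of all genes tested was -0.01. Adcy5, below the filter, was not in that fit.

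The V2 receptor transcript did not pass the test. Avpr2 (ENSMUSG00000031390, on chromosome X) stood at 467, 529, 396 and 535 TPM in AVP-flox 1 to 4 and at 516, 566, 504 and 438 TPM in AVP-flox;Cre 1 to 4. The ranges overlapped, and only AVP-flox;Cre 2 exceeded the highest AVP-flox library. Its log2 fold change of 0.08 had a 95% interval of -0.17 to 0.32 (adjusted p = 0.657). Since RNA was measured in bulk, fewer cells of a type and less RNA per cell cannot be told apart here or below. With the sex pattern as a covariate, tried because the gene is X-linked, the call did not change.

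Within each library Avpr2 could be set against Aqp2, the water channel its signal regulates. Avpr2 stood at 0.0308, 0.0336, 0.0265 and 0.0295 of the Aqp2 level in AVP-flox 1 to 4. In AVP-flox;Cre 1 to 4 the ratio was 0.0734, 0.0957, 0.0739 and 0.0805. All 4 AVP-flox;Cre libraries lay above all 4 AVP-flox libraries, a 2.68-fold higher ratio. The exact permutation test gave p = 0.0286 (two-sided), the smallest that 4 against 4 allows, and an adjusted p = 0.1 over the 7 ratios tested. From that smallest p, a ratio on its own cannot come under 0.05 after this adjustment. Aqp2 is the side that differed between the groups, at 15995 ± 1467 TPM (SD, n = 4) in AVP-flox and 6304 ± 754 TPM in AVP-flox;Cre (limma adjusted p = 3.38e-05). Other targets of the hormone in this segment did not all go the same way. Aqp3, the basolateral water channel gene, fell from 749 ± 116 to 480.9 ± 51.9 TPM (adjusted p = 0.00387), and Slc14a2, the urea transporter gene, rose from 1013 ± 110 to 1376 ± 69.7 TPM (adjusted p = 0.00438).

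The V1a receptor transcript was low in both groups. Avpr1a (ENSMUSG00000020123) was at 3.10, 6.96, 7.87 and 6.65 TPM in AVP-flox and at 9.39, 8.37, 7.84 and 7.73 TPM in AVP-flox;Cre. AVP-flox 1 was the low library, and 2 of the AVP-flox;Cre libraries lay above the AVP-flox range. The log2 fold change was 0.44 (SE 0.23, adjusted p = 0.182), and without AVP-flox 1 it was 0.19. Intercalated cell markers, listed because the V1a receptor is known from those cells, summed to 257 to 391 TPM in AVP-flox and 396 to 511 TPM in AVP-flox;Cre. Of the 12, 10 were tested, 6 rose and 0 fell, Slc26a4 and Hmx2 stayed below 1 TPM everywhere, and none was at 0 in all libraries. Their part in the Avpr1a values was not tested. The remaining receptors of the family were lower still, with Avpr1b at 0.07 and 0.08 TPM and Oxtr, the oxytocin receptor gene, at 0.897 and 0.415 TPM in AVP-flox and AVP-flox;Cre.

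Gnas did not pass the test, and in AVP-flox;Cre it spread the most of the 8 tested members on the log2 scale. Gnas (ENSMUSG00000027523), the gene of the Gs alpha subunit that carries the signal from receptor to cyclase, stood at 678, 704, 709.6 and 635 TPM in AVP-flox 1 to 4. In AVP-flox;Cre 1 it was at 680.2 TPM, inside that range. In AVP-flox;Cre 2, 3 and 4 it was at 345, 455 and 215 TPM, all below the lowest AVP-flox library. The SD was 34.1 TPM in AVP-flox and 197 TPM in AVP-flox;Cre. The log2 fold change of -0.81 had a 95% interval of -1.42 to -0.19 and was not past the threshold (adjusted p = 0.0557, exact permutation p = 0.0857). Without AVP-flox;Cre 1 it was -1.07 (adjusted p = 0.00606), without AVP-flox;Cre 4 it was -0.52 (adjusted p = 0.0782), and with AVP-flox 2 plus libraries 2 and 4 of AVP-flox;Cre left out it was -0.28 (adjusted p = 0.299). Over 25 alternatives the adjusted p ran from 0.00606 to 0.994, and 6 passed.

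Across the AVP-flox;Cre libraries Gnas took the same order as the median of genes with the most GC-rich 5′ ends, those over 80% GC. The GENCODE M21 annotation lists 24 Gnas transcripts, whose first 300 nt hold 42.3 to 83.3% GC. The transcript that starts in the window shown above is the one with 83.3%. The gene total does not separate the Gs alpha form from the longer products of the same locus. Relative to the AVP-flox mean on the log2(TPM + 1) scale, Gnas was at -0.0017, -0.98, -0.58 and -1.66 in AVP-flox;Cre 1 to 4. The median of 147 genes with over 80% GC in the first 300 nt, Gnas among them, was at -0.11, -0.47, -0.33 and -0.52. That of 543 genes with at most 50% was at -0.04, -0.03, 0.04 and 0.09. The median of 1912 genes with over 70 to 80% took another order, at -0.03, -0.16, -0.09 and -0.11. Adcy6, with 68% in its most GC-rich transcript and 54% in its longest, took the order of Gnas, at 0.0098, -0.16, -0.06 and -0.27. The median of the 4106 genes with over 60 to 70%, the group of Adcy6, took another order, at -0.0288, -0.0419, -0.0266 and 0.00466. All of these groups hold genes averaging 10 TPM or more over the 8 libraries. Of the genes with over 80% GC 42.2% fell and 5.44% rose, and of those with at most 50% 15.7% fell and 24.9% rose. Each gene was placed by its most GC-rich protein-coding transcript, a choice made after the data were seen. With each library corrected for its trend with that GC content, the Gnas fold change was -0.51 (adjusted p = 0.108). With the GC of the longest transcript, 60% for Gnas, it was -0.81 (adjusted p = 0.0565). The part of GC content in the Gnas values was not tested further.

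**Figure D2:**
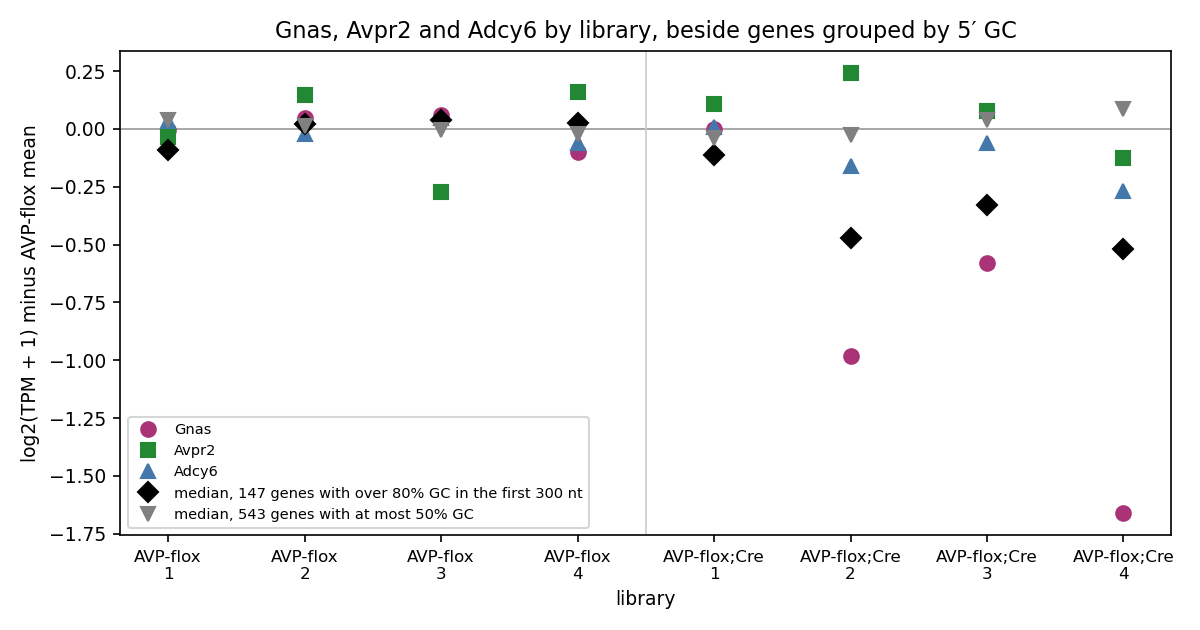
Log2(TPM + 1) of Gnas, Avpr2 and Adcy6 in each library, minus the AVP-flox mean, beside the medians of genes with over 80% and with at most 50% GC in their first 300 nt. Gnas lies near 0 in all AVP-flox libraries and in library 1 of AVP-flox;Cre, and at -0.98, -0.58 and -1.66 in AVP-flox;Cre 2 to 4, where the GC-rich median is lowest too.

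The antisense transcript of the locus, Gnasas1, was at 2.22 ± 0.87 TPM in AVP-flox and 1.90 ± 1.36 TPM in AVP-flox;Cre (SD, n = 4), and did not pass (adjusted p = 0.659). The library kits named in the labels' protocols, SMART-Seq HT and Nextera XT, do not mark strand, so reads from overlapping parts of Gnas and Gnasas1 cannot be told apart. As a ratio within the library, Avpr2 to Gnas was 0.688, 0.751, 0.558 and 0.842 in AVP-flox and 0.759, 1.64, 1.11 and 2.04 in AVP-flox;Cre. The Avpr2 level exceeded the Gnas level in AVP-flox;Cre 2, 3 and 4 and in no other library. The difference in this ratio had an exact permutation p = 0.0571 (two-sided, adjusted p = 0.1 over 7 ratios).

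Adcy6 was the main adenylyl cyclase transcript in every library. Adcy6 (ENSMUSG00000022994), which encodes a calcium-inhibited cyclase known from the collecting duct, stood at 53.8, 51.65, 54.1 and 50.2 TPM in AVP-flox. It was at 52.8, 46.7, 50.3 and 43.3 TPM in AVP-flox;Cre, where libraries 2 and 4 lay below the AVP-flox range. Its log2 fold change of -0.12 had a 95% interval of -0.30 to 0.06 (adjusted p = 0.297). Adcy5, of the same calcium-inhibited group, was at 0.46 to 1.03 TPM in AVP-flox and 0.48 to 0.94 TPM in AVP-flox;Cre. The ranges coincided (exact permutation p = 0.771, two-sided).

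Adcy7 rose. Adcy7 (ENSMUSG00000031659), of the G beta gamma-stimulated group and known for its expression in blood cells, was at 3.41, 3.77, 3.98 and 5.98 TPM in AVP-flox and at 6.90, 7.10, 6.32 and 8.37 TPM in AVP-flox;Cre. All AVP-flox;Cre libraries lay above all AVP-flox libraries, with AVP-flox 4 the nearest. The mean was 1.67-fold higher, with a log2 fold change of 0.65 (SE 0.17, adjusted p = 0.0195, exact permutation p = 0.0286). The call ended without AVP-flox 1 (adjusted p = 0.0507), AVP-flox 3 (0.052) or AVP-flox;Cre 4 (0.0507), and with AVP-flox 2 plus libraries 2 and 4 of AVP-flox;Cre left out (0.205). Over 25 alternatives the adjusted p ran from 0.00668 to 0.302. Leukocyte markers summed to 122 to 197 TPM in AVP-flox and 138 to 215 TPM in AVP-flox;Cre, ranges that overlap. Of 9 markers 7 were tested, 1 rose and 0 fell, and none was at 0 in all libraries. By library the leukocyte markers summed to 160.8, 122.1, 146.4 and 197.4 TPM in AVP-flox. In AVP-flox;Cre they summed to 215.4, 138.3, 149.3 and 203.8 TPM. Their part in the rise of Adcy7 was not tested.

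Adcy4, of the same group and known from endothelium, did not pass, and its adjusted p lay just above the threshold. It (ENSMUSG00000022220) was at 7.62, 7.29, 9.28 and 6.36 TPM in AVP-flox and at 8.96, 9.97, 11.1 and 12.0 TPM in AVP-flox;Cre. Only AVP-flox;Cre 1 lay within the AVP-flox range, below AVP-flox 3. The log2 fold change was 0.42 (95% interval 0.10 to 0.73, adjusted p = 0.0509), and it passed in 7 of 25 alternatives (adjusted p from 0.0340 to 0.616). Endothelial markers were lower in sum, at 2475 to 2541 TPM in AVP-flox and 2061 to 2162 TPM in AVP-flox;Cre. Of the 8, all tested, 3 rose, 2 fell and 3 did not pass, and none was at 0. Markers of fibroblasts, pericytes and smooth muscle summed to 141 to 191 and 288 to 362 TPM, with 9 of 10 tested, 5 higher, 0 lower and none at 0 in all libraries. By library this last sum was 148.2, 141.2, 167.9 and 191.4 TPM in AVP-flox and 329.3, 289, 288.2 and 362 TPM in AVP-flox;Cre. It was highest in AVP-flox 4 and AVP-flox;Cre 4, as was Adcy7. The part of these markers in the Adcy4 values, and in those of Adcy3 and Adcy7, was not tested.

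The remaining cyclases did not pass. Adcy3 (ENSMUSG00000020654), of the calmodulin-regulated group, was at 0.87, 1.62, 1.83 and 1.44 TPM in AVP-flox and at 3.42, 3.04, 2.68 and 1.38 TPM in AVP-flox;Cre. In 3 of 4 AVP-flox;Cre libraries it exceeded the AVP-flox range, and AVP-flox;Cre 4 did not. The log2 fold change was 0.55 (SE 0.25, adjusted p = 0.128), and without AVP-flox;Cre 4 it was 0.74 (adjusted p = 0.0364). Adcy9 (ENSMUSG00000005580) was at 3.95, 3.31, 3.37 and 3.03 TPM in AVP-flox and 3.18, 2.41, 3.21 and 2.81 TPM in AVP-flox;Cre. These ranges overlapped, with a log2 fold change of -0.18 (SE 0.16, adjusted p = 0.444). With a correction for GC content, which is 77.7% in its first 300 nt, the value was 0.02 or 0.0011, by the longest or the most GC-rich transcript. Outside the 9 genes, Adcy1 was at 1.42 and 0.823 TPM (adjusted p = 0.371), Adcy10, the soluble cyclase gene, at 1.04 and 0.512 TPM, Adcy2 at 0.168 and 0.22 TPM, and Adcy8 at 0.23 and 0.212 TPM in AVP-flox and AVP-flox;Cre.

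The summed level of all 10 cyclase transcripts was 72.8 ± 2.5 TPM in AVP-flox and 73.9 ± 3.4 TPM in AVP-flox;Cre (SD, n = 4). The share of each gene in that sum was then compared. Adcy6 made up 73.4, 73.4, 71.1 and 70.3% of the sum in AVP-flox and 67.8, 65.6, 66.5 and 61.1% in AVP-flox;Cre. Every AVP-flox;Cre library lay below every AVP-flox library, a difference of -6.82 percentage points. The exact permutation test gave p = 0.0286, and adjusted over the 10 shares p = 0.143, so it did not pass. Adcy7 made up 4.66 to 8.37% in AVP-flox and 8.36 to 11.8% in AVP-flox;Cre. Adcy4 made up 8.91 to 12.2% and 11.5 to 16.9%. For both of these shares the exact permutation p was 0.0571 and the adjusted p 0.143. Together with Adcy2, the G beta gamma-stimulated group held 15.1 to 17.9% of the sum in AVP-flox and 20.6 to 29.0% in AVP-flox;Cre. The calcium-inhibited group held 71.1 to 74.9% and 62.4 to 68.4%. The calmodulin-regulated group of Adcy1, Adcy3 and Adcy8 held 3.11 to 4.97% and 3.72 to 6.12%, ranges that overlap. These group sums were not tested.

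**Figure D3:**
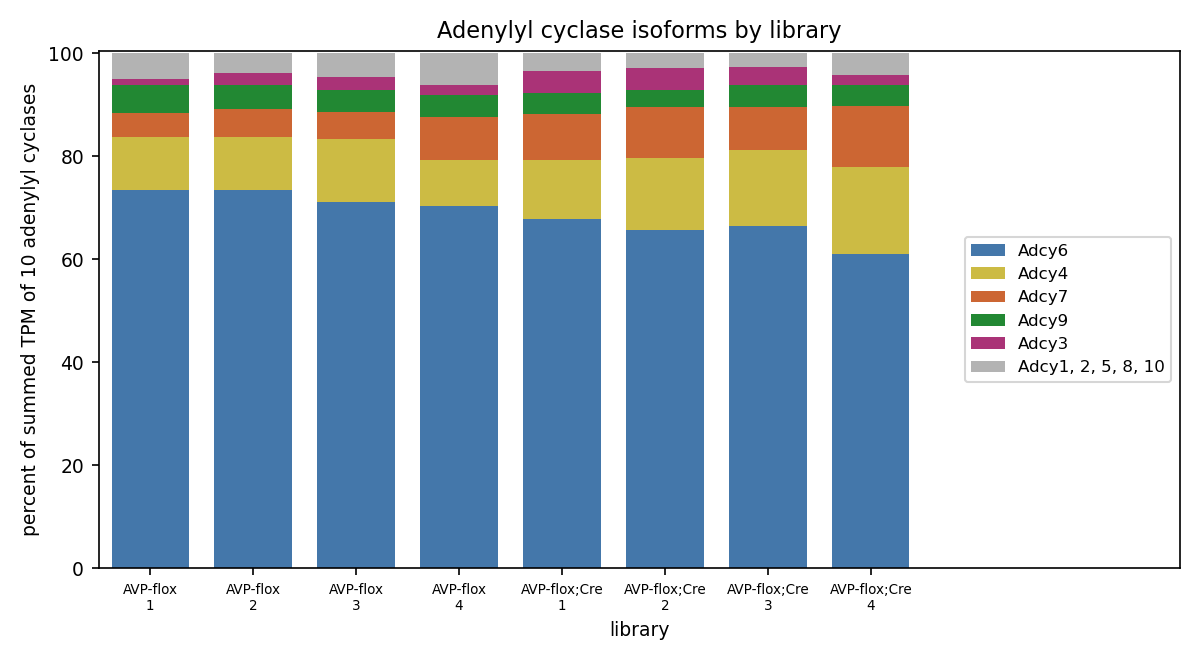
Share of each adenylyl cyclase in the summed TPM of 10 cyclase genes, in percent, for each library. Adcy6 takes 70.3 to 73.4% in AVP-flox and 61.1 to 67.8% in AVP-flox;Cre, and the Adcy4 and Adcy7 segments are widest in AVP-flox;Cre 4.

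Ratios to Adcy6 within a library, which do not depend on scaling, were compared for Adcy3, Adcy7 and Adcy9. The Adcy7 to Adcy6 ratio was 0.0634, 0.0730, 0.0735 and 0.119 in AVP-flox and 0.131, 0.152, 0.126 and 0.193 in AVP-flox;Cre. The groups did not overlap, and the ratio was 1.86-fold higher (exact permutation p = 0.0286, adjusted p = 0.1 over 7 ratios). The Adcy3 to Adcy6 ratio was 1.95-fold higher (exact permutation p = 0.0571, adjusted p = 0.1). The Adcy9 to Adcy6 ratio, at 0.0603 to 0.0735 in AVP-flox and 0.0516 to 0.0649 in AVP-flox;Cre, was 0.924-fold (exact permutation p = 0.371). Per receptor transcript there were 0.0939 to 0.137 Adcy6 transcripts in AVP-flox and 0.0826 to 0.102 in AVP-flox;Cre (exact permutation p = 0.286).

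Among the genes that surround these steps, 61 of 84 further list genes were abundant enough to test, and 15 rose, 5 fell and 41 did not pass. Their median log2 fold change was -0.05, against -0.01 over all genes tested, and 13.1% of all genes tested rose and 14.2% fell. Among the 15 higher genes are Glp1r and Ednra, which reached the filter only through their AVP-flox;Cre level. The calls of Glp1r and Ednra are not evidence of a direction. Other G alpha subunits had 3 higher, 1 lower and 7 not past of 11 tested. The higher ones were Gnai1, Gnai2 and Gnai3, which encode inhibitory subunits that lower adenylyl cyclase activity, while Gnao1 (0.22, adjusted p = 0.209) and Gnaz (-0.22, adjusted p = 0.389), of the same family, did not pass. Gnai1 was at 37.6 ± 4.7 and 60.7 ± 10.9 TPM (log2 fold change 0.67, adjusted p = 0.00761). Gnai2, the most abundant gene of this list, was at 231 ± 31 and 306 ± 30 TPM (0.41, adjusted p = 0.0165), and Gnai3 at 86.7 ± 7.6 and 106 ± 5.2 TPM (0.30, adjusted p = 0.0188). With median-of-ratios scaling between libraries Gnai2 (adjusted p = 0.121) and Gnai3 (0.107) did not pass, while Gnai1 did (0.00828). The Gnai3 call also ended with no filter (adjusted p = 0.0694) and without AVP-flox 3 (0.0577). Gna11, a Gq family subunit, fell by 0.51 (adjusted p = 0.00378). With a correction for GC content its log2 fold change was -0.312 or -0.333, by the longest or the most GC-rich transcript.

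The G beta and gamma list had 5 higher, 2 lower and 6 not past of 13 tested. Gnb4 was 2.05-fold higher, from 8.00 ± 1.3 to 16.4 ± 0.67 TPM (adjusted p = 0.000475), and Gng11 was 1.46-fold higher. Gng12, the most abundant of these subunits, fell from 461 ± 15 to 326 ± 24.5 TPM (adjusted p = 0.000668). Its log2 fold change was -0.501, and with the same 2 GC corrections -0.507 and -0.327. Gngt2 fell by 0.74 on the log2 scale (adjusted p = 0.00034). Of 6 chaperones and regulators of G alpha, 0 passed, Ric8a (-0.15, adjusted p = 0.180), the most abundant, among them.

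**Figure D4:**
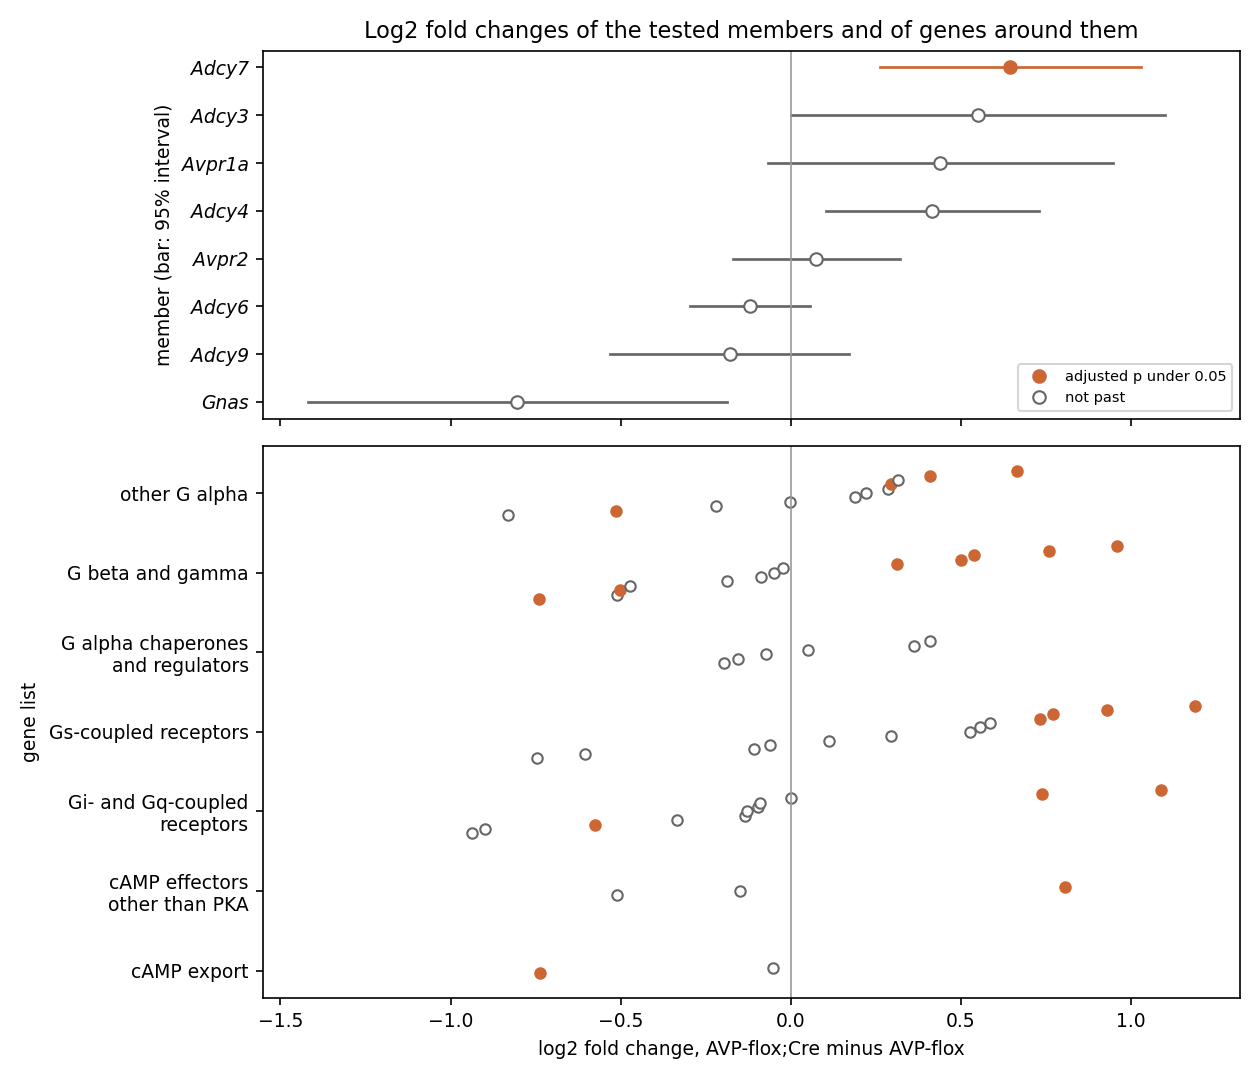
Upper panel, log2 fold changes of the 8 tested members with 95% intervals. Lower panel, each tested gene of 7 lists as a point on the same axis, filled where the adjusted p is under 0.05. Adcy7 is the filled member, and the interval of Gnas reaches from -1.42 to -0.19 without passing the adjusted threshold.

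Receptors that can feed the same cyclases were mixed. Of 13 tested genes in the list of Gs-coupled receptors and their accessory proteins, 4 rose, 0 fell and 9 did not pass. Ramp3, an accessory protein of calcitonin-family receptors, was 1.75-fold higher (adjusted p = 0.00327). Pth1r, the parathyroid hormone receptor gene, rose from 9.11 ± 2.23 to 18.3 ± 4.4 TPM (adjusted p = 0.00991). Ptger4, a prostaglandin E2 receptor gene, rose from 1.99 ± 0.55 to 3.99 ± 1.14 TPM (adjusted p = 0.0325), and the call ended in 8 of 24 alternatives. Glp1r, the incretin receptor gene, stayed low at 0.333 ± 0.116 and 2.06 ± 0.46 TPM while passing the test (1.19, adjusted p = 0.00392). It reached the filter of 1 TPM over all libraries only through its AVP-flox;Cre level, so its call is not evidence of a direction in this list. Ramp2 was the most abundant of the list, at 135 ± 20 and 125 ± 15 TPM, and did not pass (adjusted p = 0.547). The next list took in receptors that lower or oppose cyclic AMP, with 2 higher, 1 lower and 8 not past of 11. Ptger1, a prostaglandin E2 receptor gene and the most abundant there, fell from 326 ± 58 to 216 ± 15 TPM (adjusted p = 0.00492). Ednrb, an endothelin receptor gene, rose from 57.5 ± 8.1 to 96.1 ± 9.0 TPM (adjusted p = 0.0011), and Ednra, at 0.667 and 2.59 TPM, rose too (adjusted p = 0.017). Ednra, like Glp1r, reached the filter only through its AVP-flox;Cre level, so its call is not evidence of a direction either. The sums of the intercalated, endothelial and fibroblast, pericyte and smooth muscle markers given above did not overlap between the groups, and their part in these lists was not tested.

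Downstream of the cyclases, Abcc4, which exports cyclic AMP from cells, fell from 145 ± 13 to 86.3 ± 2.3 TPM (log2 fold change -0.74, adjusted p = 0.000157). Abcc5, another exporter, was at 217 ± 10 and 210 ± 22 TPM (adjusted p = 0.687). Of 3 tested cyclic AMP effectors other than protein kinase A, Rapgef4, an exchange factor for Rap, rose from 5.59 ± 1.54 to 10.7 ± 3.5 TPM (adjusted p = 0.0284), and the call ended in 8 of 25 alternatives. Rapgef3, the abundant one, was at 146 ± 15 and 131 ± 8.9 TPM, not past the threshold (adjusted p = 0.230).

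Over the 8 libraries, the genes whose log2 values ran most like those of Avpr2 were Gm53015 (Pearson r = 0.955), Timm10b (0.937) and Polr2l (0.916), out of 9847 genes averaging 10 TPM or more. For Adcy6 they were Brd7 (0.969), Rnf26 (0.961) and Zfp622 (0.961). These are descriptions over 8 points that share library, depth and group.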

How the data were processed

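The authors deposited TPM per Ensembl gene for the 8 libraries. Per the labels' protocols, cDNA came from the SMART-Seq HT kit and libraries from Nextera XT. Per the submitters' processing notes the tools were STAR and RSEM. Their versions and the genome build were not given in the sources used here. The WT columns were taken to be AVP-flox, and the KO columns AVP-flox;Cre, of the same replicate number. Identifiers sharing a symbol were summed, which left 77981 genes. TPM keeps no depth, so no counting interval is given.

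Using R 4.3.3 and limma 3.58.1, log2(TPM + 1) of the 19043 genes that averaged 1 TPM or more was compared with a mean-variance trend and Benjamini-Hochberg adjustment at 0.05. On simulated data of this comparison with 19043 genes, 422 of 500 log2 changes of 1 (84.4%) were recovered, and 483 of 500 of 2 (96.6%). There were 65 false calls in 5 runs. These rates are pooled over genes. Recovery at the level and group spread of each member was not tested. Single values were compared with two-sided exact permutation tests over 70 assignments. Fold changes are on the log2(TPM + 1) scale, which understates low genes. Members, lists and alternatives were chosen with earlier results of these data known. Named were all 9 members and, per list, the most abundant gene and up to 4 called genes of smallest adjusted p; Adcy2, Adcy5, Adcy8, Adcy10, Avpr1b, Gnao1, Gnaz and Gnasas1 were named as further family or locus genes, Gnao1 and Gnaz after their values were seen. GENCODE M21 transcripts gave GC content for 87.4% of tested genes. Alternatives covered a replicate block, pseudocounts of 0.1 and 5, filters, scalings, limma options, sex, GC and left-out libraries.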

Additional observations from a re-analysis of the deposited data

Results flagged for a closer look

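Of 104 groups of 4 libraries examined, 4 held a library far from the other 3, where chance gives about 1 in 20. Oxtr was at 0.45 TPM in AVP-flox 4. Adcy1 was at 0.44 TPM in AVP-flox 2, where thick limb and distal tubule markers summed to 964 TPM, against 2660 to 2953 TPM in the other AVP-flox libraries. Their part in that value was not tested. Slc14a2 was at 848 TPM in AVP-flox 3. The Adcy6 to Avpr2 ratio was at -3.60 on the log2 scale in AVP-flox;Cre 2.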

How the results depend on the processing

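The counts over all genes, 2491 higher and 2713 lower, became 1378 and 1182 with AVP-flox 2 plus libraries 2 and 4 of AVP-flox;Cre left out, and 209 and 103 without AVP-flox;Cre 2, 3 and 4. With no filter 1643 were lower. Leaving out each library gave 2004 to 2529 higher and 1988 to 2436 lower.

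Gnas (-0.81, adjusted p = 0.0557) passed with the replicate block (-0.81, adjusted p = 0.0414), with a filter at 5 TPM (-0.81), with quantile scaling (-0.87), without the most abundant and mitochondrial genes (-0.84) with the sex covariate (-0.90) and without AVP-flox;Cre 1 (-1.07). Leaving out each library gave -1.07 to -0.52. Adcy4 (0.42) passed with the filter at 5 TPM (0.42), quantile scaling (0.43), the sex covariate (0.45) and both GC corrections (0.41 and 0.43), and ran from 0.34 to 0.50 with each library left out. Adcy3 ran from 0.43 to 0.74. Adcy7 was not past the threshold with no filter (0.65, adjusted p = 0.0569), with AVP-flox 2 plus libraries 2 and 4 of AVP-flox;Cre left out (0.51) or without AVP-flox;Cre 2, 3 and 4 (0.60), and ran from 0.57 to 0.79 with each library left out. Values that did not pass changed sign for Avpr2 without AVP-flox 3 (-0.0148, the lowest of a range up to 0.14), for Adcy6 without AVP-flox;Cre 2, 3 and 4 (0.0098), for Adcy9 with both GC corrections (0.0227 and 0.0011) and for Abcc5 without AVP-flox;Cre 2 (0.0035, in a range from -0.107) and without AVP-flox;Cre 2, 3 and 4 (0.0259). With each library left out, the share of Adcy2 ran from -0.0045 to 0.182 percentage points, that of Adcy5 from -0.237 to 0.065 and that of Adcy8 from -0.154 to 0.0666, with 0.000516 without AVP-flox 4 and 0.014 without AVP-flox;Cre 3. In the lists, 15 higher and 5 lower became 0 and 0 without AVP-flox;Cre 2, 3 and 4, 8 were lower with sample weights, and 5 to 8 were lower with each library left out. The causes were not tested. The GC correction by the most GC-rich transcript was chosen after seeing the data. Same-numbered libraries had correlations of 0.001 to 0.095 between their deviations from group means, so the numbers were not taken to pair the samples, and the replicate block changed no other member's call. It ended that of Ednra among the list genes (adjusted p = 0.0573). The fits with only AVP-flox;Cre 1 assume that it varies like AVP-flox.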
